A study of Mus musculus with 16 samples.

Results

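Neutrophils of subcutaneous B16 melanomas were taken as the cell barcodes that carried at least 5 unique molecular identifiers (UMIs, each standing for 1 captured transcript) of S100a8 and S100a9 together. They also had to hold at least 2 UMIs of Csf3r, Retnlg and Cxcr2 together, no UMI of Cd3d or Cd3e, and at most 5 UMIs of C1qa, C1qb and C1qc. Barcodes needed at least 200 genes and at most 10% mitochondrial UMIs. This rule found 401 barcodes, called neutrophils here, among 99357 kept barcodes, out of 116552 barcodes deposited. Because these transcripts chose the cells, their levels are described below and not tested.

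C57BL/6J mice received 1000000 cells of the Bro4.1 clone of B16 under the skin, either control cells or cells that lacked B2m, the light chain of MHC class I. On days 6, 9 and 12 each mouse was given 100 µg of a CD40 agonist antibody or, as its control, of rat IgG2a, both intraperitoneally, and tumours were collected on day 14. CD45+ cells were selected with magnetic beads, the cells of each mouse carried their own hashtag antibody, and several mice shared a droplet lane as 1 pool. The 4 groups were control tumour with isotype (2 pools), control tumour with anti-CD40 (1 pool on 2 technical lanes), B2m-null tumour with isotype (2 pools) and B2m-null tumour with anti-CD40 (2 pools). In the sample labels the B2M knockout reads as a mouse genotype. The series' design text assigns it to the implanted tumour cells, and that reading was used here. Under it the neutrophils of all groups came from hosts with intact B2m, and all tumours came from 1 clone.

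Neutrophils are short-lived granulocytes made in the bone marrow. As they mature they first fill primary granules with enzymes such as myeloperoxidase, then secondary and tertiary granules with lactoferrin, cathelicidin, lipocalin and gelatinases, and the transcripts of these granule proteins are lost as the cells leave the marrow. In tumours, aged and activated neutrophils carry instead transcripts of interleukin 1 beta, chemokines and inhibitory ligands. CD40 is a receptor of the tumour necrosis factor family found mainly on antigen-presenting cells.

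Neutrophil markers that the rule did not use were high in the chosen cells, which also held transcripts of other cell types. All 31 further neutrophil markers found in the files were higher in the chosen cells than in the other kept barcodes of all pools summed, and 23 of them by more than 10 times. Hdc, the histidine decarboxylase of granulocytes, stood at 1059 CPM (UMIs of a gene per 1000000 UMIs of the summed cells) against 7.48 in the other barcodes. The neutrophil surface protein gene Ly6g stood at 125 against 0.172 CPM, and Il1r2, the decoy receptor for interleukin 1, at 675 against 20.3 CPM. G0s2, an inhibitor of lipid breakdown, was at 1287 against 4.47 CPM. After thinning each cell to 500 UMIs, 50.5% of neutrophils still held an Hdc UMI, against 0.178% of 21594 T cells, whose median depth was 3162 UMIs against 1133 in neutrophils. Of the markers of mast cells, basophils and eosinophils, Mcpt8, Cpa3, Ms4a2, Gata2, Cma1, Epx, Prg2, Ear1 and Ear6 had no UMI in any neutrophil. Ear2 was at 29.9 CPM against 12.0 CPM in the other barcodes, Ccr3 at 3.32 against 2.38 CPM and Fcer1a at 1.11 against 0.333 CPM. Mpo and Ctsg of the primary granules were also at 0. All 8 dendritic cell markers were higher in the chosen cells than in the other barcodes, such as Siglech at 87.4 against 14.4 CPM, Ccr7 at 105 against 48.4 CPM and Flt3 at 29.9 against 11.02 CPM. These levels rest on few cells, since 27 of the 401 neutrophils held at least 2 dendritic UMIs. Of the 9 subclusters described at the end, 5 were led by genes of other cell types, with 61, 26, 18, 18 and 9 of the 401 cells. Whether the cells of these 5 are neutrophils was not tested.

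The neutrophils were few and shallow, and many barcodes held UMIs of other cell types' markers. They numbered 13 and 56 in the control isotype pools, 37 in the control CD40 pool, 33 and 107 in the B2m-null isotype pools and 67 and 88 in the B2m-null CD40 pools. Summed over a pool they held between 49598 UMIs (control CD40) and 311532 UMIs (B2m-null isotype pool 2). Median depth ran from 804 UMIs (control isotype pool 2) to 1909 UMIs (control isotype pool 1). Of the 401 neutrophils, 230 held at least 2 UMIs of markers of other lineages, mostly monocytes and macrophages (192 cells), and these 230 carried 82.3% of all neutrophil UMIs. Their median depth was 1950 UMIs, and the other 171 were shallower. Whether the other-lineage UMIs came from a second cell, from free RNA of the lane or from a barcode that was not a neutrophil was not tested. The lanes shared between 41 and 92 barcodes per pair, and no barcode was a neutrophil in more than 1 lane.

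**Figure D1:**
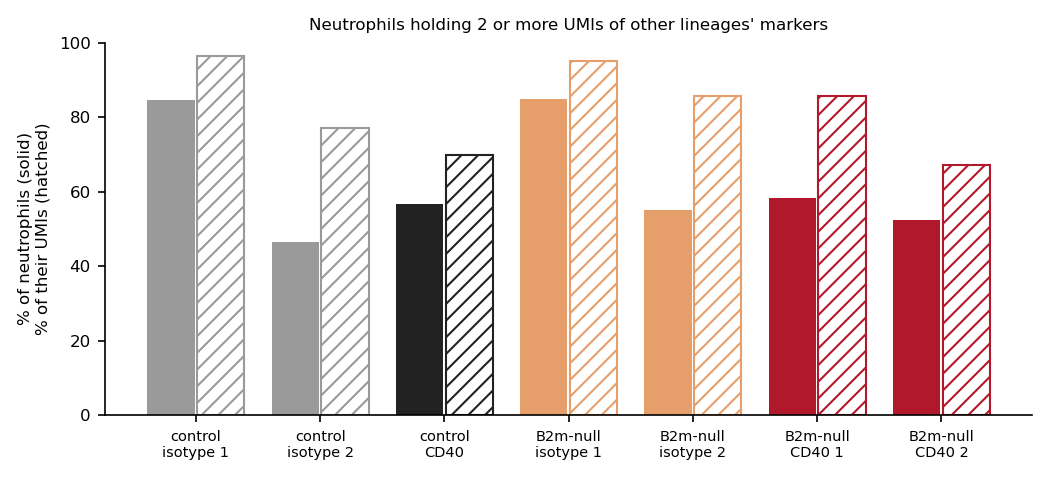
The share of neutrophils with at least 2 UMIs of other lineages' markers (solid bars) and the share of the pool's neutrophil UMIs that lie in those cells (hatched bars), in percent, for each of the 7 pools. The UMI share runs from 67.2% in B2m-null CD40 pool 2 to 96.3% in control isotype pool 1.

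The share of neutrophil UMIs in such mixed barcodes was 96.3% and 77.1% in the control isotype pools and 69.8% in the control CD40 pool. It was 94.96% and 85.7% in the B2m-null isotype pools and 85.6% and 67.2% in the B2m-null CD40 pools, so the ranges of the treatments overlapped. Markers of dendritic cells were higher in every isotype pool than in any CD40 pool: their 8 genes together were at 279, 670, 1280 and 475 CPM in the neutrophils of the 4 isotype pools, and at 0, 6.39 and 6.596 CPM in the 3 CD40 pools. They were also lower in the other barcodes of the CD40 pools, at 28.1 to 51.3 CPM against 243 to 314 CPM. Neutrophils with at least 2 dendritic UMIs numbered 2, 5, 8 and 12 in the isotype pools and 0 in each CD40 pool. Monocyte and macrophage markers were at 1311, 2544 and 1069 CPM in the CD40 pools and 2462 to 3711 CPM in the isotype pools. In the neutrophils without mixed transcripts, the dendritic markers were at 0 in all 7 pools, which the choice of those cells (fewer than 2 such UMIs) nearly fixes.

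The rule's edges fell inside a continuum. With the other criteria met, 103 cells had exactly 2 receptor UMIs, and 154 barcodes just outside had 1. Hdc was at 813 CPM just inside and 648 CPM just outside, and Il1r2 at 580 and 402 CPM. At the S100 edge there were 3 cells with 5 UMIs and 9 barcodes with 4. A further 59 barcodes met everything but had a Cd3d or Cd3e UMI, and their median depth was 4421 UMIs.

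Neutrophils made up under 1% of kept barcodes in every pool, and their share did not differ between groups beyond the spread between mice. By mouse, the shares were 0.0479, 0.0798, 0.106, 0.419 and 0.731% in control isotype and 0.253 and 0.0795% in control CD40. In B2m-null isotype they were 0.155, 0, 0.879, 0.803 and 0.885%, and in B2m-null CD40 0.227, 0.612, 0.437 and 1.35%. A mouse is a hashtag, and 1 mouse per hashtag was assumed. In B2m-null isotype pool 1 only 9 of 33 neutrophils, and in B2m-null CD40 pool 1 only 26 of 67, could be assigned to a mouse. The mouse at 0 had 244 kept barcodes, which allows a share of up to 1.23%. Within each isotype group the first pool was mostly low and the second high, and all 4 pairs of groups compared overlapped.

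In B2m-null tumours the mean share was 0.656% ± 0.488 (SD, n = 4 mice) with CD40 and 0.544% ± 0.431 (SD, n = 5) with isotype, p = 0.722 by a two-sided exact permutation test. In control tumours it was 0.166% ± 0.123 (SD, n = 2) with CD40 and 0.277% ± 0.295 (SD, n = 5) with isotype, p = 0.714 by the same exact test. B2m-null against control tumours gave p = 0.262 under isotype and p = 0.267 under CD40 by exact permutation, where the smallest p the last design allows is 0.0667. Adjusted over the 4 comparisons, the values were 0.533 for both genotype comparisons and 0.722 for both treatment comparisons. Mice that shared a lane counted as separate units, so these tests do not measure the spread between lanes. The direction turned in 3 of the 4 comparisons when a single pool was left out: without B2m-null isotype pool 1 the CD40 difference in B2m-null tumours was -0.188 percentage points, and -0.125 without CD40 pool 2, against 0.112 with all. Without control isotype pool 2 the CD40 difference in control tumours was 0.0885 percentage points against -0.111, and without control isotype pool 1 the genotype difference under isotype was -0.0310 against 0.267. By pool, the shares were 0.0831 and 0.526% (control isotype), 0.140% (control CD40), 0.272 and 0.908% (B2m-null isotype) and 0.626 and 0.738% (B2m-null CD40). The rule counts raw UMIs, and median depth of kept barcodes ran from 1792 UMIs (control CD40 lane 2) to 5103 UMIs (B2m-null isotype pool 2). Among barcodes thinned to 1000 UMIs the shares were 0.0513 and 0.115%, 0.0596%, 0.0896 and 0.290%, and 0.198 and 0.360% in the same order. No deposited barcode held under 500 UMIs, so shallower neutrophils are not counted.

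**Figure D2:**
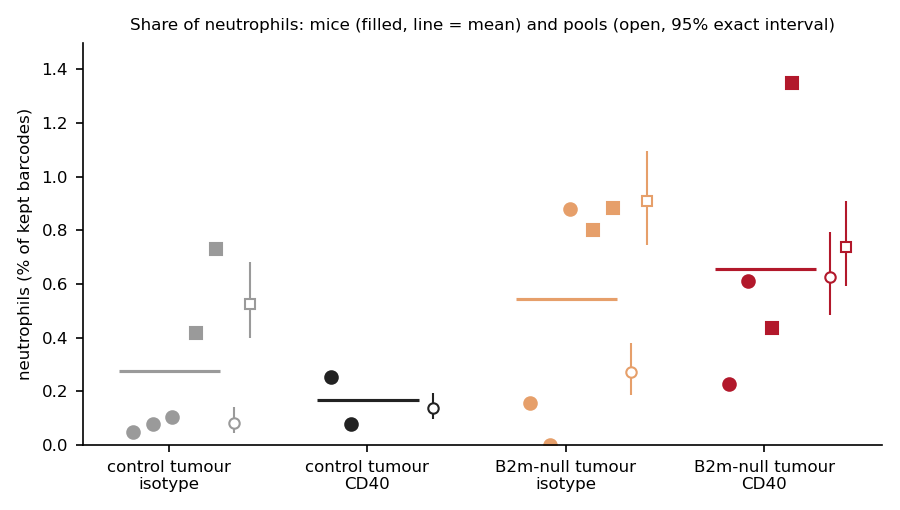
Neutrophils as a percentage of kept barcodes, for each mouse (filled points, with the group mean as a line) and each pool (open points, with a 95% exact binomial interval that covers counting error only). Circles and squares mark the first and second pool of a group, and mice of all groups overlap, from 0 to 1.35%.

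A feature of the CD40 pools was a set of neutrophils that carried secondary granule transcripts. Ngp, the neutrophilic granule protein, was at 16.4 and 0 CPM in the control isotype pools, 0 and 3.21 CPM in the B2m-null isotype pools, 11880 CPM in the control CD40 pool and 1087 and 8278 CPM in the B2m-null CD40 pools. Camp, which encodes the antimicrobial peptide cathelicidin, was at 328 and 0 CPM and 0 and 3.21 CPM in the isotype pools, against 14500, 1010 and 8126 CPM in the CD40 pools. Ltf, the iron-binding protein lactoferrin, was at 115, 0, 0 and 6.42 CPM in the isotype pools and at 4476, 505 and 2559 CPM in the CD40 pools. For all 3 genes every CD40 pool lay above every isotype pool. In the other kept barcodes they stayed at or under 23.4 CPM in every pool.

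The promoters of these 3 genes are shown because each gene was higher in every CD40 pool than in every isotype pool, although only Ltf passed in the fit below. Each run is the 250 bases before the transcription start of the RefSeq table, build GRCm38.p6 (mm10), on the gene's strand, 5′ to 3′, with capitals marking matches to TTGCNNAA or its reverse complement TTNNGCAA, a C/EBP-type motif. C/EBP-epsilon is the transcription factor known to drive secondary granule genes. Camp lies at chr9:109849457-109849706 on the minus strand, Ngp at chr9:110419558-110419807 and Ltf at chr9:111019042-111019291 on the plus strand.
Camp: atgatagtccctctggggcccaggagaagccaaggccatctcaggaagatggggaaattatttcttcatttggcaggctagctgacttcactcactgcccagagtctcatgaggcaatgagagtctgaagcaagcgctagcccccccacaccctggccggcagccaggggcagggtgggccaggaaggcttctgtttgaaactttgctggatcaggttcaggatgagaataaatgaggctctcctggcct
Ngp: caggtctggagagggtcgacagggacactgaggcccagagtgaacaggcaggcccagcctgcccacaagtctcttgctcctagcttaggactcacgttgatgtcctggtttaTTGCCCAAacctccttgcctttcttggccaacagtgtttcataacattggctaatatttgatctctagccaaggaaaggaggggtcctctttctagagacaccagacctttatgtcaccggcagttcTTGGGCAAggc
Ltf: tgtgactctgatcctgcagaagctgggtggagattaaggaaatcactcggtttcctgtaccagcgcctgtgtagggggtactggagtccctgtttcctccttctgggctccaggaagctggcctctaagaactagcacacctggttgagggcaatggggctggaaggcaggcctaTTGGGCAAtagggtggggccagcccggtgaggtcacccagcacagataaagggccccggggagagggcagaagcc
Ngp had 2 matches, whose first bases lie 138 and 11 bases before the start, Ltf had 1 at 75 bases, and Camp had none in this window. Of 32851 promoters of the same length, 3142 or 9.56% held the motif on either strand. A match is a description of the letters and not a binding site.

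A minority of cells held nearly all of these transcripts. Neutrophils with at least 3 UMIs of Camp, Ngp and Ltf together numbered 11 of 37 in the control CD40 pool, or 29.7% (95% exact binomial interval 15.9 to 47.0%). They numbered 4 of 67 (5.97%, 1.65 to 14.6%) and 10 of 88 (11.4%, 5.59 to 19.9%) in the B2m-null CD40 pools. In the control isotype pools they numbered 1 of 13 (7.69%, 0.195 to 36.0%) and 0 of 56 (0 to 6.38%). In the B2m-null isotype pools they numbered 0 of 33 (0 to 10.6%) and 0 of 107 (0 to 3.39%). The share of 7.69% lay above that of the first B2m-null CD40 pool, so the shares of the treatments overlapped. The 2 technical lanes of control CD40 held 8 of 22 and 3 of 15. By mouse, such cells were found in both control CD40 mice (5 of 16 and 5 of 14) and in 3 of the 4 B2m-null CD40 mice (1 of 6, 0 of 20, 3 of 29 and 7 of 48), with most neutrophils of B2m-null CD40 pool 1 unassigned. A single cell held 578 of the 1530 UMIs of the 3 genes in the control CD40 pool, so the pool level rests on few cells.

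The 25 granule-transcript cells of the CD40 pools were set beside the other 167 neutrophils of the same pools, as a description, since granule UMIs chose them. They also held more of several other genes. Lcn2 (lipocalin 2) stood at 15550 against 438 CPM, Ly6g at 1395 against 44.8 CPM, Cd177 at 950 against 6.89 CPM and Cebpe, which encodes C/EBP-epsilon, at 267 against 17.2 CPM. Mmp9 (gelatinase B) stood at 2344 against 548 CPM and Retnlg at 12390 against 2529 CPM. Il1b stood at 1009 against 8748 CPM and the chemokine Ccl3 at 890 against 2887 CPM, and both were lower in each of the 3 CD40 pools. Cd274 (PD-L1) stood at 193 against 682 CPM, but at 272 against 254 CPM within the control CD40 pool. Cxcr2 stood at 326 against 637 CPM, but at 972 against 399 CPM within B2m-null CD40 pool 1. Mpo, Elane, Prtn3 and the proliferation gene Mki67 had no UMI in the 25 cells, while Top2a had 7 UMIs. Median depth was 2206 UMIs in the granule-transcript cells and 1022 UMIs in the rest, and 19 of 25 against 87 of 167 held at least 2 UMIs of other lineages. None of the 25 was a hashtag doublet.

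**Figure D3:**
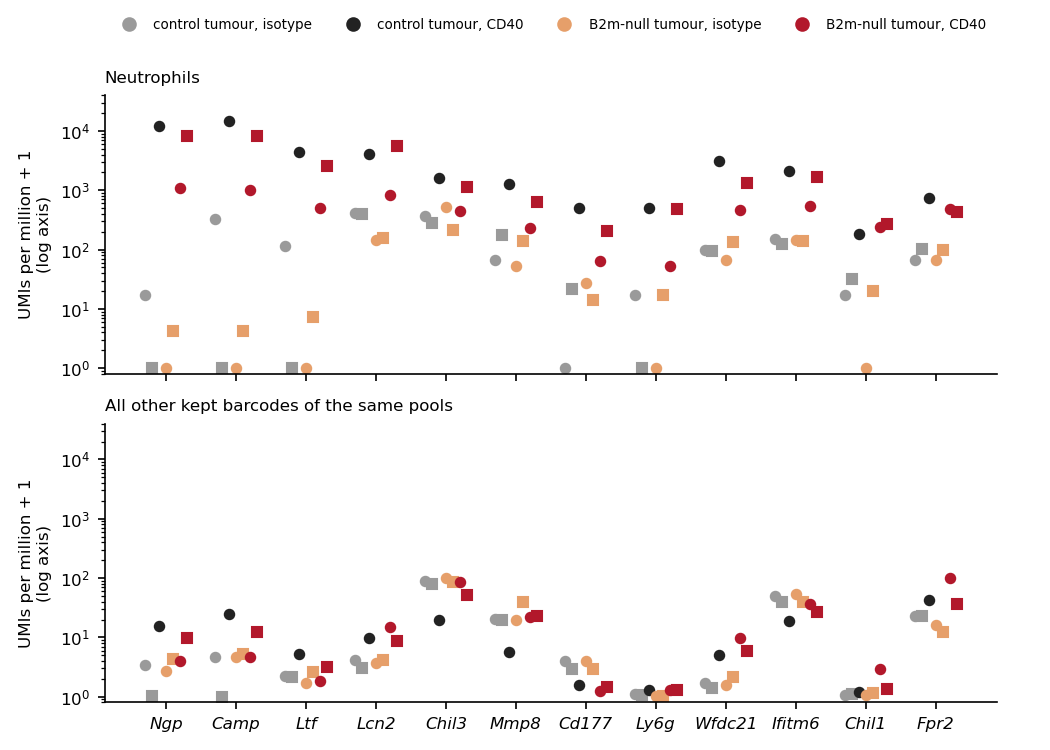
Levels of 12 granule and maturation genes in CPM plus 1, on a log axis, in the neutrophils (upper panel) and in all other kept barcodes (lower panel) of each pool. Circles and squares mark the first and second pool of a group. For Ngp, Camp and Ltf the 3 CD40 pools lie above the 4 isotype pools in the upper panel, and no other-barcode value of these 3 exceeds 23.4 CPM.

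To ask how anti-CD40 altered neutrophils whatever the tumour genotype, CD40 was compared with isotype averaged over both genotypes, in a quasi-likelihood fit (edgeR) of UMI sums per pool. Control isotype pool 1, with 13 neutrophils, was left out of this fit, so each arm of control tumours was 1 pool and its spread was taken from the other groups. Of 3305 genes tested, 10 or 0.303% passed an adjusted p of 0.05: 6 or 0.182% were higher and 4 or 0.121% lower with CD40. The median log2 change over all genes was -0.06. The groups were spread differently over the subclusters described at the end: subcluster 0, led by Ccr7 and Cst3, came mostly from isotype pools, subcluster 6, led by Ngp and Camp, mostly from CD40 pools, and subcluster 7, led by interferon genes, mostly from B2m-null CD40 pools. The subclusters were formed with those genes, so this is a description of where the cells lie and not a further result. The p-values measure the spread between pools, each of which mixes several mice.

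The 6 genes that rose were Ltf, Wfdc21, Cd177, Ifitm6, Chil1 and Fpr2, each at an edgeR adjusted p of 0.0397. Wfdc21, a whey acidic protein family gene, was at 92.7 CPM in control isotype pool 2, 65.3 and 131.6 CPM in the B2m-null isotype pools, and 3125, 460 and 1332 CPM in the CD40 pools, a log2 fold change of 4.26 ± 0.62 (SE). Cd177, a neutrophil surface protein, went from 20.6, 26.1 and 12.8 CPM to 504, 63.9 and 204.5 CPM in the same order, a log2 fold change of 3.96 ± 0.67. Ifitm6, an interferon-induced transmembrane family gene, went from 123.6, 143.7 and 138 CPM to 2117, 543 and 1682 CPM, a change of 3.75 ± 0.58. No pool of one arm overlapped the other for any of these genes. Ltf, Wfdc21, Cd177 and Ifitm6 were also among the leading genes of subcluster 6 (30 cells), described at the end. Wfdc21 stood there at 5001 against 165.5 CPM in the rest, and Ifitm6 at 5341 against 172.8 CPM. Cd177 stood there at 918.4 against 10.95 CPM, and Ltf at 9720 against 12.17 CPM. What part the cells of subcluster 6 had in the pool levels of these genes was not tested.

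Fpr2, a receptor for formyl peptides that steers neutrophils to bacteria and damaged tissue, was at 103, 65.3 and 96.3 CPM with isotype and 726, 473 and 435 CPM with CD40. Its log2 fold change was 2.78 ± 0.40 (SE). Chil1, a chitinase-like protein of the specific granules, was at 30.9, 0 and 19.3 CPM with isotype and 181.5, 243 and 264 CPM with CD40, a change of 3.45 ± 0.59. Ltf passed as well. Its level rests on 0, 0 and 2 UMIs in the isotype pools, so the fitted value of 10.32 ± 1.34 is no bound, and by counts the B2m-null CD40 pools were 294-fold above the B2m-null isotype pools (counting interval 81.0 to 2436). Ngp and Camp, with fitted changes of 12.22 and 12.35, did not pass in this fit (edgeR adjusted p = 0.106 for each).

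The 4 genes that fell were Ccr7, Cd83, Serpinb6b and Cst3, each at an edgeR adjusted p of 0.0397. Ccr7 guides mature dendritic cells to lymph nodes, Cd83 marks their activation, and Cst3 encodes cystatin C, abundant in dendritic cells and macrophages. Ccr7 was at 257.5, 405 and 122 CPM with isotype and 0, 6.39 and 0 CPM with CD40. Cd83 was at 164.8, 182.9 and 125.2 CPM with isotype and 0, 12.8 and 13.2 CPM with CD40. Cst3 was at 5852, 4717 and 3967 CPM with isotype and 1069, 1240 and 996 CPM with CD40, a log2 fold change of -2.02 ± 0.35. In the neutrophils without mixed transcripts Ccr7, itself a marker that set cells apart, and Serpinb6b had no UMI in any pool, and Cd83 was not among the genes tested. The change of Cst3 there was 0.82, of the opposite sign. Without neutrophils holding monocyte UMIs it was 0.15.

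The averaged count of 10 genes depended on single libraries. It was 0 without lane 1 of control CD40, which leaves 15 neutrophils in that arm, 41 and 43 without B2m-null isotype pool 1 or 2, and 258 and 124 without B2m-null CD40 pool 1 or 2. In the neutrophils without mixed transcripts, an alternative chosen after seeing the data, 678 genes could be tested and 19 or 2.8% passed, 14 of them (2.06%) higher with CD40. Ltf, Cd177, Ifitm6 and Wfdc21 passed there too, while Chil1 (2.71) and Fpr2 (1.62) did not. This fit rests on 5 such neutrophils in B2m-null isotype pool 1, and 19 of the 25 granule-transcript cells of the CD40 pools are not in it. Even over all neutrophils, control isotype pool 2 and the B2m-null isotype pools held 0, 0 and 4 UMIs of Ngp, Camp and Ltf together. The fitted values of these 3 genes are therefore no bound. The higher genes included Ngp (fitted log2 change 9.53, edgeR adjusted p = 2.47e-08), Camp (9.21), Ltf (9.27), Chil3 (7.96), Lcn2 (2.75 ± 0.56), Ly6g (4.31 ± 1.08) and Cybb (3.76 ± 0.68), the catalytic subunit of the NADPH oxidase. The lower genes included the chemokine Cxcl3 (-5.26 ± 1.04), Thbs1 (-2.48 ± 0.61), Spp1 (-4.43 ± 1.12) and G0s2 (-2.50 ± 0.70). Within B2m-null tumours of the same fit Thbs1 passed (-2.77), whereas Cxcl3 (-1.69), Spp1 (-1.61) and G0s2 (-0.64) did not, and the control CD40 pool behind the averaged values held 16 such cells with 14973 UMIs.

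By lists, the 17 secondary and tertiary granule proteins gave 16 tested genes, of which 2 rose (Ltf and Cd177) and 15 were positive, with a median log2 change of 1.76. Over all 3305 genes 0.182% rose and the median was -0.06. Their summed level was 7088 and 6037 CPM in the control isotype pools, 4482 and 6076 CPM in the B2m-null isotype pools, and 46090, 14090 and 35160 CPM in the CD40 pools. Among 29 tested neutrophil markers outside the rule, 2 rose and 28 were positive, with a median of 0.90. Without mixed barcodes 27 of these markers could be tested, 19 were positive, 3 rose and 1 fell, and the median was 0.17. Of 15 receptors for chemoattractants and adhesion 1 rose (Fpr2), 11 were positive and the median was 0.39. All 6 tested dendritic markers were negative with a median of -5.99, and 1 of them fell, where 0.121% of all genes fell. Genes linked to tumour neutrophils (16 tested, median -0.06), hypoxia and glycolysis (25 tested, 0.31), and heat shock or immediate early response (19 tested, -0.05) had no member past the threshold. Without mixed barcodes the receptors had a median of -0.12 (10 tested), the hypoxia list -0.08 (11 tested) and the tumour neutrophil list -0.55 (9 tested, 1 of them lower past the threshold), and the granule list 2.75 (13 tested, 7 higher). Of all 678 genes of that fit 2.06% were higher and 5 genes lower.

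In B2m-null tumours alone, where each arm had 2 pools, 8 of 3305 genes or 0.242% passed: 5 or 0.151% higher and 3 or 0.0908% lower with CD40. Chil1 rose with a log2 fold change of 4.29 ± 0.63 (SE, edgeR adjusted p = 0.0312). Upp1, the uridine phosphorylase, was at 65.3 and 122 CPM with isotype and 607 and 732 CPM with CD40, a change of 2.99 ± 0.47 (edgeR adjusted p = 0.0312). AA467197, the mouse homologue of NMES1, was at 104.5 and 93.1 CPM with isotype and 1502 and 448.5 CPM with CD40, a change of 3.53 ± 0.57 (edgeR adjusted p = 0.0344). In control tumours Upp1 was at 72.1 CPM with isotype and 60.5 CPM with CD40.

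Fpr2 rose by 2.66 ± 0.44 (edgeR adjusted p = 0.0355). Prdx5, a peroxiredoxin that removes peroxides, was at 496.5 and 642 CPM with isotype and 3216 and 2170 CPM with CD40, a change of 2.49 ± 0.42 (edgeR adjusted p = 0.0399). In the other barcodes of these pools Prdx5 was at 278 and 364 CPM with isotype and 1161 and 830 CPM with CD40, so it was higher there too. None of the 5 genes that rose passed in the neutrophils without mixed transcripts, where their log2 changes were 3.21 (Chil1), 2.01 (Upp1), 1.11 (AA467197), 1.53 (Fpr2) and 2.16 (Prdx5). Upp1, AA467197 and Chil1 likewise stood higher in the other barcodes of both B2m-null CD40 pools than of both isotype pools.

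The 3 genes that fell in B2m-null tumours were Ccl24, Serpinb6b and Tbc1d4, each at an edgeR adjusted p of 0.0312. Ccl24, the eosinophil attractant eotaxin 2, was at 261 and 151 CPM with isotype and had no UMI with CD40, which makes it at least 17.7-fold lower when the CD40 group is set to 3 counts. Serpinb6b was at 248 and 144 CPM with isotype and had no UMI with CD40, at least 16.9-fold lower. Tbc1d4 was at 222 and 157 CPM with isotype and at 0 and 6.596 CPM with CD40. In the neutrophils without mixed transcripts all 3 genes were at 0 in every pool. The count of 8 was 58 and 48 without B2m-null isotype pool 1 or 2, 345 and 179 without B2m-null CD40 pool 1 or 2, and 20 to 25 without a control library.

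Most interferon-response genes had a positive fitted CD40 change in the neutrophils of B2m-null tumours, but none passed in the fit of all neutrophils. All 25 tested genes of the type I interferon list were positive, 16 of them at an unadjusted p under 0.05, with a median log2 change of 1.35 against 0.02 over all genes. Of all 3305 genes, 477 had an unadjusted p under 0.05 in either direction. Of 29 tested interferon gamma genes 25 were positive, 20 were higher and 2 lower at an unadjusted p under 0.05, and the median was 1.86. The summed level of the interferon gamma list, which includes MHC class II genes, did not separate the treatments in all neutrophils. It was 12580 and 9338 CPM in the B2m-null isotype pools and 21080 and 8674 CPM in the B2m-null CD40 pools, the second of which lay under both isotype pools. Without mixed barcodes, which leaves 5 cells in B2m-null isotype pool 1, this sum was 4663 and 2268 CPM with isotype and 15170 and 6700 CPM with CD40. The type I list summed to 5775 and 5871 CPM with isotype and 13160 and 9881 CPM with CD40. All 17 tested genes of MHC class I and peptide loading were positive, 13 of them at an unadjusted p under 0.05, with a median of 1.29. Fibroblast and endothelial markers were also high in 1 of these pools, at 2110 CPM in B2m-null CD40 pool 1, against 52.8 CPM in pool 2 and 118 and 86.7 CPM in the B2m-null isotype pools. Of the 67 neutrophils of B2m-null CD40 pool 1, 1 held at least 2 UMIs of these markers. Most cells of subcluster 1, led by collagen genes, Cxcl9 and Nos2, came from that pool, and their part in the interferon levels of all neutrophils was not tested.

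Gbp2, a guanylate-binding protein induced by interferon gamma, was at 170 and 276 CPM with isotype and 1860 and 686 CPM with CD40 in B2m-null tumours (log2 change 2.68 ± 0.52, edgeR adjusted p = 0.0622). In control tumours it was at 1247 and 185 CPM with isotype and 121 CPM with CD40. Irf1, a transcription factor of the same response, was at 143.7 and 166.9 CPM against 684 and 561 CPM in B2m-null tumours (2.24 ± 0.42, adjusted p = 0.0558), and at 476, 494.5 and 323 CPM in the control pools. Isg15, a ubiquitin-like protein induced by type I interferon, was at 314 and 225 CPM against 850 and 871 CPM (2.00 ± 0.41, edgeR adjusted p = 0.0681), and at 541.5, 227 and 80.7 CPM in the control pools. For all 3 genes both B2m-null CD40 pools lay above both B2m-null isotype pools. The control CD40 pool was the lowest of all pools for Gbp2 and Isg15, but for Irf1 it lay above both B2m-null isotype pools. In the other barcodes, Irf1 was at 62.3 and 65.9 CPM with isotype and 146 and 114 CPM with CD40 in B2m-null tumours.

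In the neutrophils without mixed transcripts, 27 of 678 genes or 3.98% passed in B2m-null tumours, 25 or 3.69% of them higher with CD40. Among them were 6 of 10 tested interferon gamma genes, 2 of 14 type I genes, 5 of 8 MHC class I genes and 6 of 13 granule genes. Gbp2 rose by 3.96 ± 0.84 (edgeR adjusted p = 0.00652), Irf1 by 3.46 ± 0.78 (0.00805), Isg15 by 3.48 ± 0.71 (0.00430) and the nucleic acid sensor Zbp1 by 4.55 ± 1.05 (0.00870). Of antigen presentation, the peptide transporter Tap1 rose by 3.65 ± 0.94 (0.0198) and the class I heavy chain H2-K1 by 2.14 ± 0.61 (0.0424). Here the first isotype pool held 3860 UMIs in 5 neutrophils, and the other B2m-null pools 44534, 22539 and 49703 UMIs.

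**Figure D4:**
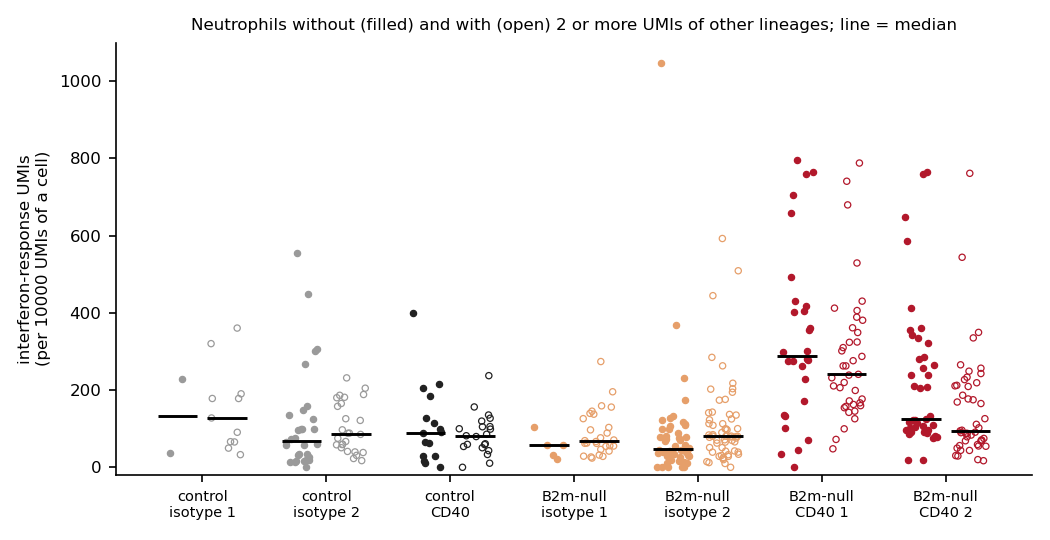
UMIs of 61 interferon-response genes per 10000 UMIs of a cell, for each neutrophil of the 7 pools, without (filled) and with (open) at least 2 UMIs of other lineages. The 61 genes leave out the MHC class II genes of the interferon gamma list. Black lines are medians, and the highest stand in B2m-null CD40 pool 1, at 289 for cells without such UMIs.

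Cell by cell, 61 genes were summed: both interferon lists without the MHC class II genes Cd74, H2-Aa, H2-Ab1 and H2-Eb1. They had a median of 276 UMIs per 10000 in B2m-null CD40 pool 1 and 116 in pool 2. The medians were 62.7 and 72.4 in the B2m-null isotype pools, 128 and 76.1 in the control isotype pools and 85.5 in the control CD40 pool. Without mixed barcodes they were 289 and 125 in the B2m-null CD40 pools, 57.8 and 48.1 in the B2m-null isotype pools, 133 in control isotype pool 1 (2 cells), 68.6 in control isotype pool 2 and 89.9 in the control CD40 pool. The CD40 medians of B2m-null tumours were thus above the isotype medians of B2m-null tumours with either set of cells, but pool 2 lay under control isotype pool 1 with either set. The spread within a pool was wide, from 0 to 797 in B2m-null CD40 pool 1 and from 0 to 1047 in B2m-null isotype pool 2.

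In control tumours no gene of 3305 passed (0%) for CD40 against isotype, with edgeR and limma-voom, 232 genes had an unadjusted p under 0.05, and DESeq2 called 2. The comparison was 1 pool against 1. The 5 genes with the smallest p, which missed the threshold (edgeR adjusted p = 0.668), were Wfdc21, Fpr2, Ltf, Ifitm6 and Cd177. Their log2 changes were 5.15 ± 1.02, 2.89 ± 0.66, 12.29 ± 2.36, 4.17 ± 0.95 and 4.64 ± 1.11 (SE). Ltf had no UMI in the control isotype pool of this fit, so its value of 12.29 is no bound, and the left-out control isotype pool did hold Ltf. With the 13-cell pool added, 3 genes passed, and without mixed barcodes 7. Without B2m-null isotype pool 1 or 2 the counts were 10 and 9, and without B2m-null CD40 pool 1 or 2 they were 57 each. Of 16 tested granule genes 14 were positive with a median of 2.28, against -0.11 over all genes. The type I and gamma interferon lists had medians of -0.24 and -0.51, with 12 of 25 and 12 of 29 genes positive.

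Between tumour genotypes no gene passed under either antibody (0% of 3305 in each) with edgeR, DESeq2 or limma-voom. Under isotype, 70 genes had an unadjusted p under 0.05, and the 5 smallest were Ccl24, Hmox1, Irf1, Dlst and Pcna. Hmox1, the haem oxygenase, was at 443 and 185 CPM in control and 1111 and 1210 CPM in B2m-null isotype pools (log2 change 2.61 ± 0.63, which did not pass). Hmox1 also led subcluster 3 (4654 against 339 CPM), described at the end, whose cells all held other-lineage UMIs. That subcluster had 2 and 2 cells in the control and 5 and 7 in the B2m-null isotype pools. Irf1 was lower in the B2m-null isotype pools (-1.66 ± 0.49, edgeR adjusted p = 1). Without B2m-null isotype pool 1 or 2 the count was 6 and 1, and without B2m-null CD40 pool 1 or 2 it was 9 and 12.

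Under CD40, 278 genes had an unadjusted p under 0.05, and the 5 smallest were Isg15, Thy1, Igtp, Ms4a6c and Upp1, each at an edgeR adjusted p of 0.42. Isg15 was at 80.7 CPM in the control pool and 850 and 871 CPM in the B2m-null pools (3.57 ± 0.70). Thy1, a T cell surface gene, was at 343 CPM in the control pool and 12.8 and 0 CPM in the B2m-null pools, and had no UMI in neutrophils without mixed transcripts. Without B2m-null isotype pool 1 or 2 the count was 8 and 6, and without B2m-null CD40 pool 1 or 2 it was 23 and 130. Here 24 of 29 interferon gamma genes and 23 of 25 type I genes were positive, with medians of 1.57 and 1.31 against 0.18 over all genes.

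The difference of the CD40 effect between genotypes was tested directly, and 0 of 3305 genes (0%) passed with edgeR, DESeq2 or limma-voom, while 195 had an unadjusted p under 0.05. The 5 with the smallest p were Csf2rb2, Isg15, Clec5a, Irf1 and Cxcl9, all with an edgeR adjusted p of 0.791. For Irf1 the fitted CD40 effect was larger in B2m-null tumours by 2.77 ± 0.74 (SE, log2), and for Isg15 by 3.39 ± 0.89. The interferon gamma list had a median difference of 1.84, with 23 of 29 genes positive, and the granule list -0.73, with 6 of 16 positive, against 0.20 over all genes. A different CD40 effect in the 2 tumour genotypes was therefore not detected in single genes. Without B2m-null isotype pool 2 the count was 4, and without B2m-null CD40 pool 1 or 2 it was 12 and 32.

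Whether a CD40 change was larger in neutrophils than in the other barcodes of the same pools was tested in a fit of 14 sums from 7 pools, with the pool as a block. Of 14106 genes 77 or 0.546% passed, and 26 of them (0.184%) changed more upwards in neutrophils. Several were granule genes: the differences in log2 change were 8.65 ± 0.56 (SE) for Ngp, 6.16 ± 0.49 for Ltf, 6.38 ± 0.74 for Cd177, 3.69 ± 0.41 for Mmp8 and 2.81 ± 0.40 for Chil3, and 5 of 17 granule genes passed. With classical monocytes in place of all other barcodes, Ngp (6.98), Cd177 (5.71) and Mmp8 (2.88) passed, while Ltf (2.25, edgeR adjusted p = 0.763) and Chil3 (1.77, edgeR adjusted p = 0.0939) did not. Among 31 neutrophil markers outside the rule, 7 passed upwards, such as Lrg1 (3.03 ± 0.41), Il1r2 (2.03 ± 0.36) and Hdc (1.57 ± 0.35, edgeR adjusted p = 0.00441). Il1b, which encodes interleukin 1 beta, differed by 1.36 ± 0.31 (edgeR adjusted p = 0.00592). The averaged CD40 change itself, not set against other barcodes, was, in the neutrophils without mixed transcripts, 0.56 for Lrg1, -0.88 for Il1r2, 0.12 for Hdc and 0.03 for Il1b, and none of the 4 passed there. Against classical monocytes the differences were 0.83 for Lrg1, 1.14 for Il1r2, 1.52 for Hdc and 0.80 for Il1b, and none of these passed. For Camp the difference was 5.47 ± 1.67 with an edgeR adjusted p of 0.945.

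The 51 genes with a difference below 0 included Irf8 (-2.001 ± 0.42, edgeR adjusted p = 0.00134), a transcription factor of monocytes and dendritic cells, and Cd74 (-1.24 ± 0.31, edgeR adjusted p = 0.0166), the MHC class II invariant chain. Also among the 51 were immunoglobulin genes such as Igkc (-5.15) and Ighm (-2.88) and the lymphocyte receptor gene Klrd1 (-4.17). Ribosomal protein genes such as Rps20 (-1.50) were among them too. Upwards, the fibroblast marker Dcn passed (4.47), so genes of other cell types passed in both directions. Against classical monocytes Irf8 passed (-1.69) and Cd74 did not (-1.22). The averaged CD40 change of Cd74 in the neutrophils without mixed transcripts was 2.17 (edgeR adjusted p = 0.121), a different quantity that was not set against other barcodes. No MHC class I gene of 18 passed, and the median difference of that list was 0.00. For the type I interferon list 1 of 32 passed (Slfn4, 2.59 ± 0.37, and 2.499 against monocytes, where it passed too) with a median of 0.67. The averaged CD40 change of Slfn4 without mixed transcripts was 0.37 and did not pass. For the gamma list none passed upwards and 2 passed downwards (Irf8 and Cd74), with a median of -0.03. The count of 77 was 51 without control isotype pool 2, 43 without the control CD40 pool, 40 and 33 without B2m-null isotype pool 1 or 2, and 200 and 23 without B2m-null CD40 pool 1 or 2. This fit shares its estimate of spread over genes, and how far its very small p-values rest on that was not tested.

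The transcripts behind the rule differed widely between pools. S100a8, an alarmin subunit, was at 5529 and 11160 CPM in control isotype, 5070 and 8728 CPM in B2m-null isotype, 85230 CPM in control CD40 and 16550 and 49330 CPM in B2m-null CD40. Retnlg was at 902 and 2380, 758 and 1101, 8710, and 2142 and 5290 CPM in the same order. Cxcr2, the receptor for CXCL2 and related chemokines, stayed between 98.5 and 778 CPM, and Csf3r, the receptor for granulocyte growth factor, between 392 and 1055 CPM. The isotype pools with the highest share of mixed barcodes had the lowest S100a8 and Retnlg levels. In the CD40 pools S100a8 was also unevenly spread over cells. It was at 138500 CPM in the 25 granule-transcript cells and 17080 CPM in the other 167 neutrophils. What part either had in the differences between pools was not tested. Without mixed barcodes the 5 rule markers together were at 30260 and 61150 CPM in control isotype and 30830 and 65590 CPM in B2m-null isotype, and at 147300 CPM in control CD40 and 103700 and 106200 CPM in B2m-null CD40. With all neutrophils they were at 12680 and 28460 CPM, 11500 and 20430 CPM, 158400 CPM, and 39700 and 120100 CPM in the same order, so the pools lay closer together without those barcodes. B2m-null isotype pool 2 and B2m-null CD40 pool 1, at 20430 and 39700 CPM, had 85.7 and 85.6% of their neutrophil UMIs in mixed barcodes.

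The genes followed by name beyond the rule did not pass in the fit of all neutrophils. Cd40 itself had 6 and 3 UMIs in the control isotype pools, 0 in the control CD40 pool, 9 and 5 in the B2m-null isotype pools and 9 and 4 in the B2m-null CD40 pools, and 1 UMI in all the neutrophils without mixed transcripts. B2m, which the mice's own cells keep, was at 3692 and 2915 CPM in the control isotype pools, 3508 CPM in the control CD40 pool, 2561 and 2581 CPM in B2m-null isotype and 5185 and 4063 CPM in B2m-null CD40. In pigment-rich barcodes without Ptprc, taken as melanoma, B2m was at 943 to 1887 CPM in control pools and 165 to 426 CPM in B2m-null pools, which checks the labels.

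Cd274, the ligand of PD-1, was at 230 and 278 CPM in the control isotype pools, 262 CPM in the control CD40 pool, 314 and 404.5 CPM in B2m-null isotype and 722 and 561 CPM in B2m-null CD40 (log2 change in B2m-null tumours 1.08 ± 0.40, edgeR adjusted p = 0.264). Il1b was at 2970 and 6253, 4335, 2953 and 4497, and 5332 and 10280 CPM in the same order. Cxcl2, which attracts further neutrophils, was at 7334 and 12290, 7420, 9969 and 13190, and 9423 and 19850 CPM. The last B2m-null CD40 pool was the highest of all pools for both, while the first lay within the range of the isotype pools for both.

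Clustered on their own, the 401 cells fell into 9 subclusters, which are described by their leading genes. Subclusters 2, 4, 6 and 7 were led by neutrophil, cytokine, granule or interferon genes. Subcluster 2, with 132 cells, was led by Lrg1, Ifitm1, Stfa2l1, G0s2, Cxcr2, Il1b and Csf3r, and Il1b stood at 15490 CPM there against 4126 CPM in the rest. Subcluster 4, with 65 cells, was led by Ccl3 (13240 against 1341 CPM), Ccl4, Ddit3 and Hilpda, genes of chemokine production, stress and hypoxia. Subcluster 6, with 30 cells, held Ngp, Camp, Ltf, Lcn2 and Ly6g. Subcluster 7, with 42 cells, was led by Cmpk2, Isg20, Oasl1, Gbp5, Ifit3 and Rsad2.

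The other 5 subclusters were led by genes of other cell types and stay unnamed. Ccr7, Naaa, Cst3 and Cd74 led subcluster 0 (57 of 61 cells with other-lineage UMIs), and collagen genes with Cxcl9 and Nos2 led subcluster 1 (25 of 26). Col1a1, Col1a2 and Col3a1 each had a UMI in 1.25% of all neutrophils, so the collagen levels of subcluster 1 rest on few cells. Pf4, Arg1, Hmox1 and Trem2 led subcluster 3 (18 of 18), cytotoxic genes such as Gzma and Nkg7 subcluster 5 (16 of 18), and Siglech, Ccr9 and Tcf4 of plasmacytoid dendritic cells subcluster 8 (9 of 9). Median depth was 1566 to 4273 UMIs in these 5, and 822 to 1901 UMIs in the other 4. In subclusters 2, 4, 6 and 7, between 33.8% and 66.7% of cells held such UMIs.

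**Figure D5:**
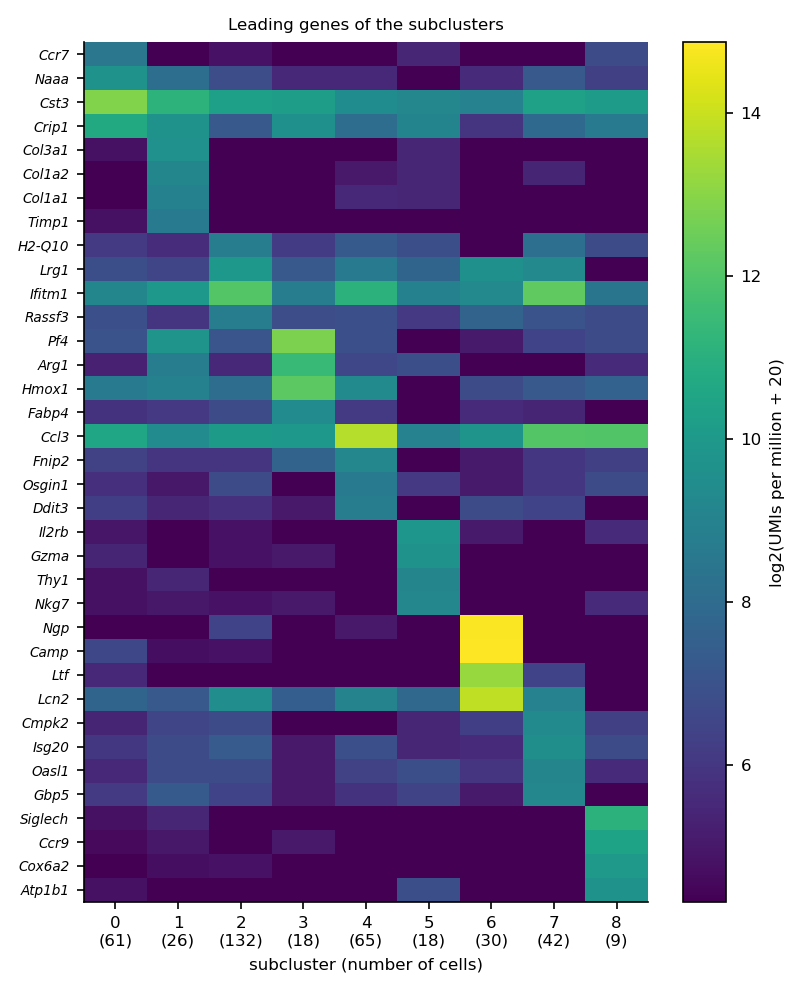
Leading genes (rows) in each subcluster of neutrophils (columns, with the number of cells), in log2 of CPM plus 20. Ngp and Camp mark subcluster 6, Cmpk2 and Oasl1 subcluster 7, and Ccr7, Col3a1, Pf4, Gzma and Siglech the subclusters led by genes of other cell types.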

How the data were processed

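Single-cell RNA was measured on 8 droplet lanes. The deposited matrices hold raw UMI counts per gene and barcode, made with Cell Ranger 3.0.0 and bcl2fastq 2.20.0.422 on mm10, per the submitters' processing notes, with separate hashtag counts. The labels list 3 hashtags per pool, whereas 6 files hold 2. Hashtags were assigned by a mixture model (posterior 0.9, at least 20 counts, 2.5 SD for doublets). Hashtag doublets were kept and were removed as an alternative, and no expression doublet caller was run.

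Counts of the neutrophils were summed per pool, with both control CD40 lanes as 1 pool, and fitted over all 4 groups with edgeR 4.0.16 (quasi-likelihood, TMM, minimum count 10, Benjamini-Hochberg threshold 0.05). Pools under 20 neutrophils were left out, which leaves 6 pools. DESeq2 1.42.0 and limma 3.58.1 were alternatives. Shares were tested over mice with at least 200 kept barcodes (scipy 1.17.1). Subclusters used scanpy 1.11.5 (1000 variable genes, 20 components, 15 neighbours, resolution 1). Intervals and limits cover counting error only. The scripts were tested on simulated data.

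Named genes were those past 0.05 with at least 20 CPM and no overlap of pools, up to 10 in each direction and 4 per list. Where fewer than 5 passed, the 5 smallest p-values were named. Rule markers, Cd40, B2m, Cd274, Il1b and Cxcl2 were added. The neutrophils and the lists were chosen with earlier results of these data known. The result of 1 gene is not reported here.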

Additional observations from a re-analysis of the deposited data

Results flagged for a closer look

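Each value here is the log2 change with CD40 in neutrophils minus that in the other kept barcodes of the same pools, and each passed the edgeR test of that difference. Among granule and maturation genes it was 8.65 for Ngp, 6.159 for Ltf, 6.384 for Cd177, 4.83 for Cebpe, 3.685 for Mmp8 and 2.811 for Chil3. Among other genes that neutrophils express it was 3.029 for Lrg1, 2.591 for Slfn4, 2.234 for Ifitm1, 2.029 for Il1r2, 1.567 for Hdc, 1.365 for Il1b and 1.254 for Wfdc17. It was below 0 for Irf8 (-2.001), Cd74 (-1.239) and the heat shock gene Hspa1a (-3.109). The averaged CD40 change itself, in neutrophils with fewer than 2 UMIs of other lineages, was -0.88 for Il1r2, 0.12 for Hdc, 0.03 for Il1b, 0.56 for Lrg1, 0.54 for Wfdc17, 0.37 for Slfn4, 0.96 for Ifitm1 and 2.17 for Cd74, and none of these passed. With classical monocytes in place of the other barcodes, Ngp, Cd177, Mmp8, Slfn4, Wfdc17 and Irf8 passed, while Ltf, Chil3, Lrg1, Ifitm1, Il1r2, Hdc, Il1b, Hspa1a and Cd74 did not, and Cebpe was not among the genes tested. No mouse stood apart in its neutrophil share in the 3 groups of 4 or more mice.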

How the results depend on the processing

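The counts of called genes moved with most choices. Below, cells without monocyte or other-lineage UMIs are those with fewer than 2 such UMIs. For CD40 averaged over genotypes (10 genes) the count was 70 with no filter on low counts, 20 with DESeq2, 3 with limma-voom, 27 without neutrophils holding monocyte UMIs, 17 with the stricter rule, 22 with cells thinned to 500 UMIs, and 19 both without other-lineage UMIs and with the 13-cell pool, the last 2 chosen after seeing the data. For CD40 in B2m-null tumours (8 genes) the same settings gave 148, 27, 4, 68, 29, 49 and, without other-lineage UMIs, 27, while RLE size factors gave 20 and mice as the unit 5. The fit by mouse took only mice with at least 10 neutrophils, so all its B2m-null isotype mice came from pool 2. Mice that shared a lane counted there as separate units. For CD40 in control tumours (0 genes) they gave 10 with no filter, 2 with DESeq2, 14 without monocyte UMIs, 4 with the stricter rule, 7 when thinned, 7 without other-lineage UMIs and 3 with the 13-cell pool. Genotype under isotype (0) gave 3 with no filter and 2 without monocyte UMIs. Genotype under CD40 (0) gave 18, 17 and, when thinned, 7, and the difference between genotypes (0) gave 5, 3 and 1. Against classical monocytes the 77 differences became 26. The cause was not tested.

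Leaving out 1 library gave 0 to 258 genes for the averaged comparison, 20 to 345 in B2m-null tumours, 0 to 57 in control tumours, 0 to 12 and 0 to 130 for genotype under isotype and CD40, 0 to 32 for the difference between genotypes, and 23 to 200 for neutrophils against other barcodes. In that last fit control CD40 was dropped whole. The share differences ranged from -0.1877 to 0.3485, from -0.4089 to 0.08848, from -0.031 to 0.567 and from 0.2531 to 0.7265 percentage points in the order CD40 in B2m-null, CD40 in control, genotype under isotype and genotype under CD40. With at most 5% mitochondrial UMIs the first was -0.1317, and without B2m-null CD40 pool 2 it was -0.1249.

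With the replicate number as a block (replicate block), CD40 in B2m-null tumours gave 57 genes. Only 2 pairs of pools share numbers, and their deviations correlated at 0.112 over 3313 genes.

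Of the named genes' alternative values, 318 kept direction and side, 79 newly passed, 71 no longer passed and 8 turned. Cst3 averaged over genotypes was 0.1476 without monocyte UMIs and 0.8182 without other-lineage UMIs. Averaged over genotypes, Irf1 ranged from -0.1029 to 1.089, Gbp2 from -2.458 to 1.404 and Isg15 from -2.948 to 0.6296 when 1 library was left out, each lowest without lane 1 of control CD40. Gbp2 was -1.34 with the stricter rule, and Isg15 -2.358 when thinned and -0.02287 with the 13-cell pool.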
